A study of Homo sapiens with 2 samples.

Results

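Isolated peaks inside long gene spans were studied in CLIP-seq of Musashi-2 (MSI2) from NB4 cells, a human line established from acute promyelocytic leukaemia. Both libraries belonged to 1 group, labelled MSI2 Rep 1 and MSI2 Rep 2, and each was made from 25000000 cells crosslinked with ultraviolet light at 400 mJ per square centimetre and recovered with an antibody to MSI2. No treatment, knockout or control library was analysed here, and the labels do not say that the replicates came from separate cultures, so their spread may be technical. A gene's span ran from the first to the last peak listed under its Ensembl gene ID in either replicate. A peak was a member if the span was 50 kb or more, if the peak lay clear of the first and last 10% of the span, and if no other peak of the same gene in the same list lay within 5 kb. The rule gave 1083 members of 25920 peaks in replicate 1 (4.18%) and 978 of 25243 in replicate 2 (3.87%).

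MSI2 belongs to the Musashi family of RNA-binding proteins and is known in blood stem cells and myeloid leukaemia as a regulator of translation and stability of messenger RNA. Musashi proteins carry RNA recognition motifs that contact short sequences with a UAG core, and their best known sites are in the 3' untranslated regions of mature transcripts. In a long gene most of the sequence between the ends is intron, which is transcribed and then removed in the nucleus, so a peak far from both ends and from other peaks is a candidate for an intronic site. Whether these peaks lie in introns, exons or untranslated regions was not analysed here, because no exon positions of the files' genome build, hg19, were used. The lists do not pair gene IDs with names. Genes are therefore given by the hg19 positions of their peaks and in some cases by Ensembl gene ID. The base sequences of the peaks are not shown, and the promyelocytic identity of the cells was not checked against marker genes.

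The members were chosen by position and spacing. These measures are therefore described and not tested. Tally, width, deposited p-value and overlap with the other replicate were not part of the rule. The tally is the whole number that ends each peak's name. No header or label explains it. It was 3 or more in every peak and was read as behaving like a number of reads. The tallies of all peaks added up to 155598 and 133644, and the number of reads sequenced is unknown, so values are given for each library on its own. With 2 libraries of 1 group no test between conditions is possible, and the 95% Wilson intervals given with shares cover counting error only.

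Long spans were found for 1258 of the 8801 gene IDs in either list (14.3%), with a median of 91.0 kb and a maximum of 1264 kb. Of these genes, 854 (67.9%) held a member in at least 1 replicate. Member genes numbered 653 in replicate 1 and 603 in replicate 2, and 402 were in both, which is 61.6% of the first set and 66.7% of the second. Most member genes held a single isolated peak, 364 genes (55.7%) in replicate 1 and 346 (57.4%) in replicate 2. The most in any gene was 6 in replicate 1 and 8 in replicate 2. Members lay on chromosomes 1 to 22 and X, with 560 on the plus and 523 on the minus strand in replicate 1 and 552 and 426 in replicate 2. Chromosome 19 held 1.20% of the members of replicate 1 against 3.97% of all its peaks, and 1.23% against 5.89% in replicate 2. It held 17 of the 1258 genes with long spans.

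Isolated peaks had low tallies. In replicate 1 their median tally was 3, with an interquartile range of 3 to 4 and a maximum of 17. In replicate 2 the median was also 3, with an interquartile range of 3 to 4 and a maximum of 28. Peaks in the 3'-most 10% of all long spans, with or without a member, had medians of 5 and 4 and maxima of 49 and 43. The lowest tally, 3, was held by 53.5% of the members of replicate 1 (95% Wilson interval 50.5% to 56.4%) and by 64.1% (61.1% to 67.1%) of those of replicate 2. Over all peaks of the lists it was held by 35.7% and 45.3%. Clustered inner peaks, which had a neighbour of the same gene within 5 kb, held it in 730 of 1623 cases in replicate 1 (42.6% to 47.4%) and in 59.1% in replicate 2 (56.7% to 61.4%), so that their interval overlapped that of the members in replicate 2 and not in replicate 1. Among the 3'-most peaks it was held by 29.4% (27.9% to 31.0%) and 39.9% (38.2% to 41.6%). Tallies of 10 or more belonged to 25 members (2.31%) in replicate 1 and 14 (1.43%) in replicate 2, against 14.4% and 10.1% of the 3'-most peaks. The intervals of isolated and 3'-most peaks did not overlap in either library. The peaks of the 5'-most 10% of the spans had still more of the lowest tally, 60.5% and 72.9%. The outermost peak in either list sets the end of a span, so a lone weak peak can itself make this class. How much of these values is built in that way was not tested.

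**Figure D1:**
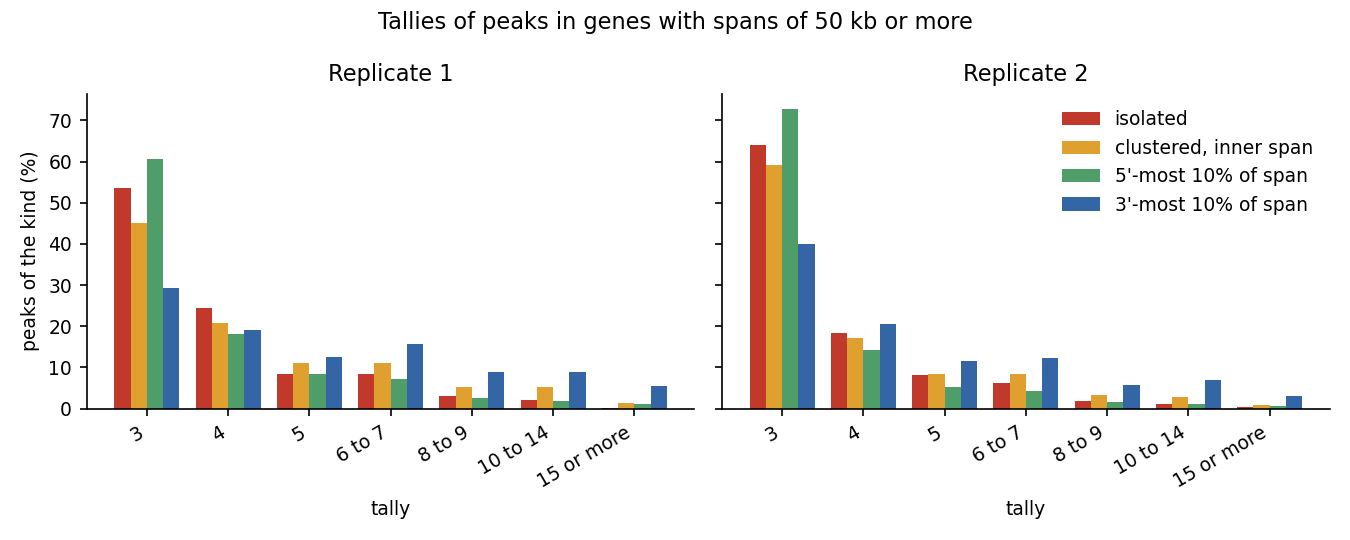
Share of peaks (%, vertical axis) in each class of tally (horizontal axis) for isolated peaks, clustered inner peaks and peaks at either end of spans of 50 kb or more, in each replicate. The bar for a tally of 3 reaches 53.5% and 64.1% in isolated peaks and 29.4% and 39.9% in the 3'-most peaks.

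Tallies were also compared inside genes. Replicate 1 had 571 genes with both isolated and 3'-most peaks. In 375 of them the mean tally of the isolated peaks was the lower, in 129 it was the higher and in 67 the values were equal. Averaged over these genes the mean tally was 4.06 for isolated and 5.64 for 3'-most peaks. Replicate 2 had 514 such genes, with the isolated mean lower in 302, higher in 107 and equal in 105, and averages of 3.76 and 4.95. Against the 5'-most peaks of the same gene the order was turned, with isolated peaks lower in 105 and higher in 175 of 411 genes in replicate 1, and lower in 91 and higher in 140 of 394 genes in replicate 2. The averages there differed less, 4.16 against 3.88 and 3.73 against 3.66. Against clustered inner peaks of the same gene the isolated mean was lower in 132 and higher in 86 of 252 genes in replicate 1, with averages of 3.99 and 4.40. In replicate 2 it was lower in 89 and higher in 90 of 232 genes, with averages of 3.95 and 3.96, so no difference from clustered peaks was seen inside the genes of that list. The amounts of unspliced and spliced RNA of each gene were not measured.

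At the same tally, up to the class of 10 to 14, the median deposited p-values of 3'-most peaks were larger than those of the other kinds in long spans. At 15 or more in replicate 2 the 3'-most median was the smallest, at 5.5e-13 against 9.1e-12 in the 4 isolated peaks. At a tally of 4 the median p was 0.0056 in isolated and 0.013 in 3'-most peaks of replicate 1, and 0.0054 and 0.010 in replicate 2. At a tally of 5 it was 0.0012 against 0.0038 in replicate 1 and 0.0011 against 0.0032 in replicate 2. At a tally of 4 the 5'-most peaks had medians of 0.0056 and 0.0054 and the clustered peaks 0.0061 and 0.0062, close to the isolated peaks. The p-value is the authors' own for each peak, and its calculation is not described by any header or label. Over all tallies, with most members at 3, the median p of isolated peaks was 0.021 and 0.022, against 0.0065 and 0.011 at the 3' end.

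The median width of isolated peaks was 38 nt in replicate 1 (interquartile range 28 to 47) and 40 nt in replicate 2 (30 to 48). Clustered peaks of the inner spans were narrower when pooled, with medians of 34 nt (17.5 to 48) and 31 nt (13 to 43). Those under 0.1 kb from a neighbour had medians of 22 and 18 nt. At 0.1 to 1 kb the medians were 39 and 37 nt, and at 1 to 5 kb 35 and 37 nt. Clustered peaks with this wider spacing were thus closer in width to the isolated peaks. The 3'-most peaks had medians of 44 and 41 nt. Width grew with tally. Isolated peaks with a tally of 3 had median widths of 34 and 37 nt, those with 5 had 46 and 45 nt, and those with 10 or more had 62 and 71 nt. At a tally of 3 the isolated peaks were wider than the pooled clustered peaks, at 22 and 20 nt. They were slightly wider than the 3'-most peaks, at 31 nt in each replicate. Widths at this tally were not split by spacing. The widest member of replicate 1, on the minus strand at chr16:87766663-87766821, was 159 nt wide with a tally of 10. That of replicate 2, on the plus strand at chr10:28897129-28897263, was 135 nt wide, also with a tally of 10. Both were overlapped in the other replicate. The narrowest had a tally of 3 and widths of 2 and 3 nt, at chr10:11299701-11299702 in replicate 1 and 140884961 to 140884963 of chromosome 5 in replicate 2, and neither was overlapped.

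Isolated peaks recurred less often than peaks as a whole. A peak was called recurrent if it shared at least 1 nt, on its own strand, with any peak of the other list. This held for 184 of 1083 members of replicate 1, or 17.0% (14.9% to 19.3%), against 35.7% of all its peaks. In replicate 2 it held for 209 of 978, or 21.4% (18.9% to 24.05%), against 37.3% of all its peaks. The mean of the replicates was 19.2% ± 3.10 (SD, n = 2). Both shares count overlaps between the same 2 lists, so they are not independent and this SD does not measure a replicate spread of recurrence. The 3'-most peaks of all long spans, in 1053 and 1004 genes with or without a member, recurred in 38.0% (36.3% to 39.6%) and 41.4% (39.7% to 43.2%). The clustered inner peaks recurred in 27.2% (25.1% to 29.5%) and 25.7% (23.6% to 27.8%). For the 5'-most peaks the share was 15.1% in each replicate (13.1% to 17.3% in both). A peak of 1 list alone can set that end of the span, so this share may be low partly by construction. The members' intervals lay below those of the 3'-most peaks in both libraries. They overlapped those of the pooled clustered peaks in replicate 2 and those of the 5'-most peaks in replicate 1. Clustered peaks under 0.1 kb from a neighbour recurred in 23.3% (19.8% to 27.3%) in replicate 1 and 16.9% (14.4% to 19.7%) in replicate 2. Those at 0.1 to 1 kb recurred in 34.8% (30.7% to 39.1%) and 36.0% (31.6% to 40.7%). At 1 to 5 kb it was 24.4% (21.3% to 27.9%) and 144 of 480 peaks (26.1% to 34.2%). Of these bands, only that under 0.1 kb in replicate 2 had an interval that overlapped the members' interval. The others lay above it.

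Recurrence went with tally. Of members with a tally of 3, 6.56% (4.82% to 8.88%) recurred in replicate 1 and 11.3% (9.08% to 14.04%) in replicate 2. At a tally of 5 it was 28.9% and 38.0%, and at 6 to 7 it was 45.1% and 30 of 60 members. Tallies of 8 to 9 gave 66.7% and 77.8%. Of members with a tally of 10 or more, 21 of 25 recurred in replicate 1 (84.0%, 65.3% to 93.6%) and 13 of 14 in replicate 2 (92.9%, 68.5% to 98.7%). Strong isolated peaks were thus recurrent in most cases, and weak ones in few. The share of 3'-most peaks with a tally of 3 was 12.2% and 17.8%, above the isolated peaks in both libraries. At tallies of 8 to 9 the 3'-most share was 59.9% in replicate 1 and 77.8% in replicate 2, within the members' intervals.

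**Figure D2:**
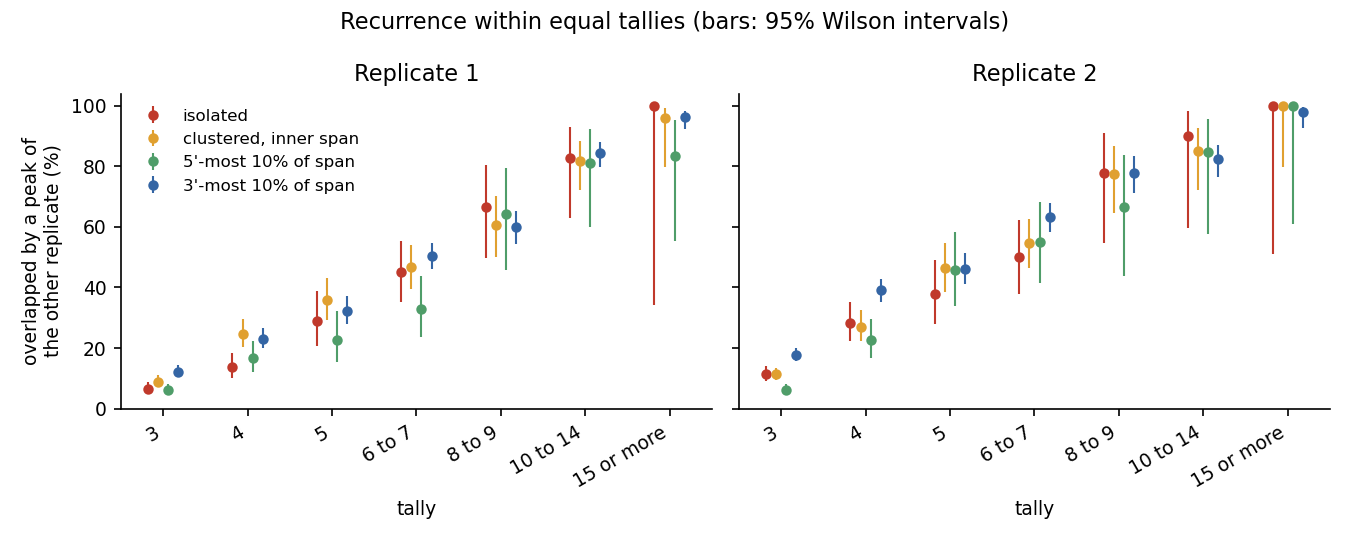
Share of peaks overlapped by a peak of the other replicate (%, vertical axis) by class of tally (horizontal axis), for the same 4 kinds of peak in each replicate, with 95% Wilson intervals as bars. All 4 kinds climb with tally, and isolated peaks go from 6.56% and 11.3% at a tally of 3 to 82.6% and 90.0% at 10 to 14.

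Weighting the other kinds to the tallies of the members narrowed the gaps. With tallies of 10 or more taken as 1 class, the 3'-most peaks would have recurred in 22.9% in replicate 1 and 28.8% in replicate 2, against 17.0% and 21.4% observed for the isolated peaks. Clustered inner peaks, pooled over all spacings, came to 21.5% and 22.2%, and 5'-most peaks to 15.8% and 17.8%. These weighted values carry no test. Inside genes holding both kinds, the share of recurrent peaks averaged 16.8% for isolated and 36.1% for 3'-most peaks over 571 genes in replicate 1. In replicate 2 it averaged 21.3% and 40.6% over 514 genes, not adjusted for tally. Against the clustered peaks of the same gene the order differed between the libraries. In replicate 1 the averages were 17.7% for isolated and 22.4% for clustered peaks over 252 genes, and in replicate 2 they were 25.4% and 23.1% over 232 genes, with the isolated share lower in 74 and higher in 70.

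Displaced members seldom met a peak of the other list. With each member's interval moved by 0.5, 1 or 2 kb to either side, between 0 and 0.277% of the members of replicate 1 met a peak of replicate 2, or at most 3 peaks of 1083. In replicate 2 the displaced shares ran from 0.204% to 0.613%, or at most 6 of 978. A count of 0 of 1083 allows a share of up to 0.277% (3 counts of the total). The 3'-most peaks had displaced shares of 2.83% to 6.28% and 3.04% to 6.99%. The rule keeps other peaks of the same gene in the same list 5 kb away, so sites found in both libraries cannot lie near a member, and the displaced shares are low partly by that construction. On the opposite strand 0 of 1083 and 0 of 978 members were overlapped, which allows up to 0.277% and 0.307%.

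**Figure D3:**
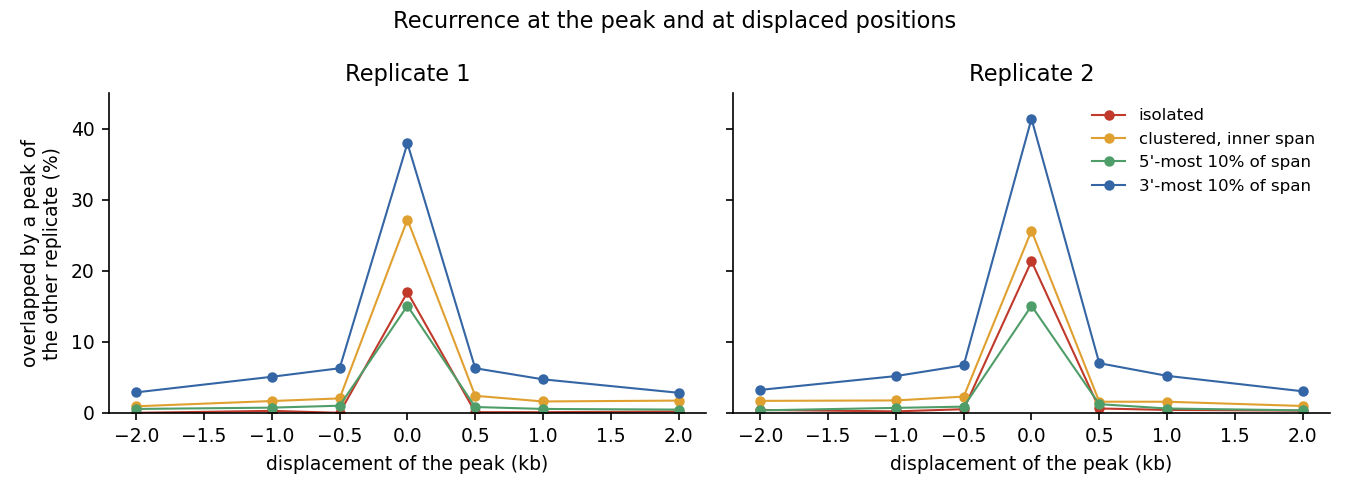
Share of peaks overlapped by a peak of the other replicate (%, vertical axis) at the peak itself (0) and with the peak moved by 0.5, 1 or 2 kb (horizontal axis), by kind and replicate. Isolated peaks stand at 17.0% and 21.4% at 0 and at 0.613% or less at every displacement.

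Members without an overlap mostly had no peak of the other library close by. In replicate 1, 26 members (2.40%) lay within 0.1 kb of the nearest same-strand peak of replicate 2 without meeting it, 44 (4.06%) at 0.1 to 1 kb and 115 (10.6%) at 1 to 5 kb. A further 338 (31.2%) lay at 5 to 20 kb and 376 (34.7%) beyond that. Replicate 2 had 25, 60, 97, 320 and 267 members in these bands. The median distance of the members without an overlap was 15.7 kb in replicate 1 and 12.6 kb in replicate 2, against 0.636 and 0.610 kb for 3'-most peaks.

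Being isolated in one list did not always carry over to the other. The partner was itself isolated for 122 of the 184 recurrent members of replicate 1, which is 11.3% of all members (9.52% to 13.3%). In replicate 2 it was isolated for 122 of 209, or 12.5% of all members (10.5% to 14.7%). Partners of 61 and 86 further members were clustered inner peaks, so the partner had a neighbour within 5 kb in its list where the member had none. Whether that neighbour was also called, farther off, in the member's list was not analysed. The remaining member of each replicate overlapped a peak of a gene ID with a short span. The partner was listed under the same gene ID for 183 of 184 and 208 of 209 recurrent members.

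Pairs isolated in both lists numbered 124, in 109 genes, or 121 pairs with each interval counted once. They make up 27.1% of the 402 genes with members in both lists, and the other 293 genes held isolated peaks in both lists at different places. In these pairs the overlap had a median of 33.5 nt (interquartile range 22 to 44.25). The centres of the short inner intervals, which the lists give within each peak and which are at most 4 nt long, lay a median of 6 nt apart. In 88 pairs (71.0%) they lay within 10 nt. The start and end were identical in 1 pair. Median tallies were 5 in replicate 1 and 4 in replicate 2. The tally was higher in replicate 1 in 74 pairs, higher in replicate 2 in 27 and equal in 23, with the larger sum of tallies also in replicate 1. Across the 124 pairs, which share libraries and were chosen for overlap, Spearman's rho of the tallies was 0.42 and Pearson's r on the log2 scale was 0.49. Both tallies were 3 in 14 pairs, 5 or more in 34 and 10 or more in 6.

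The 10 strongest pairs, by the tally in the weaker replicate, lay in 9 genes. They are given here because their position and strength were found in both libraries. Their overlap was fixed by the choice. The strongest was a plus-strand site of ENSG00000182150.11 on chromosome 9, at 98667316 to 98667375 with a tally of 11 in replicate 1 and at 98667321 to 98667377 with a tally of 22 in replicate 2. It lay 27.3% of the way along a span of 106.4 kb, and it was the only peak of that gene in the list of replicate 2. The next 5 pairs had tallies of 10 or more in both libraries.

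ENSG00000154001.9, on the minus strand of chromosome 14, held 2 of the 10 pairs. One, at 63888728 to 63888812 in replicate 1 and 63888720 to 63888813 in replicate 2, had tallies of 14 and 11. The other, at 63920406 to 63920480 and 63920406 to 63920457, had tallies of 15 and 8. They lay 65% and 42% of the way along a span of 142.6 kb, and each was more than 20 kb from the next peak of the gene in its list.

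A minus-strand pair on chromosome 6, at 17628929 to 17628989 in replicate 1, had tallies of 11 and 13. On chromosome 2 a minus-strand pair at 55209651 to 55209720 had tallies of 17 and 10, and the same start in both lists. The tally of 17 was the highest of any member of replicate 1. Tallies of 11 and 10 belonged to both a minus-strand pair at chr3:49405861-49405888 and a plus-strand pair at chr9:33318998-33319086. These pairs lay between 34% and 87% of the way along spans of 52.6 to 90.7 kb. The chromosome 3 peaks were narrow for their tally, at 28 and 19 nt.

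The remaining 3 pairs were weaker in at least 1 library. A minus-strand pair at chr7:158566040-158566082 had tallies of 8 in each. A plus-strand pair at chr11:61596007-61596070 had tallies of 7 and 15. A plus-strand pair at chr2:169522465-169522516 had tallies of 9 and 7, and stood near the middle (49%) of a span of 213.8 kb with its nearest neighbour in replicate 2 103.8 kb away.

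The strongest member of replicate 2 was not among these pairs. It was a minus-strand peak at chr21:36259547-36259654 with a tally of 28. The replicate 1 peak that overlapped it had a tally of 24 but had a neighbour within 5 kb, so it was not a member. A plus-strand peak at chr2:191797517-191797586 was similar, with a tally of 15 in replicate 2 and 16 in a clustered peak of replicate 1. A pairing of strict members therefore leaves out some of the strongest shared sites.

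Some strong members were not recurrent. The 5 strongest of these had tallies of 9 to 11 in replicate 1 and 8 to 10 in replicate 2. On chromosome 13 a minus-strand peak at 29012436 to 29012484 had a tally of 11 in replicate 1, and its gene had 4 peaks in that list and 0 in replicate 2. A minus-strand peak at chr15:50581740-50581841 also had a tally of 11 in replicate 1, with the nearest peak of replicate 2 11.2 kb away. In replicate 2 a minus-strand peak at chr12:124957636-124957678 had a tally of 10, with the nearest peak of replicate 1 15.9 kb away. A peak is listed only once it passes the caller's threshold, so its absence from a list does not show that no reads were there.

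Recurrence was lower beyond 10 kb from the nearest neighbour than at 5 to 10 kb. Distance and span were used by the rule, so these values are a description. Among inner peaks whose nearest neighbour lay 5 to 10 kb away, 23.7% recurred in replicate 1 (19.5% to 28.5%) and 31.0% in replicate 2 (26.0% to 36.5%). At 10 to 20 kb the shares were 14.5% and 20.7%, and at 20 to 50 kb they were 16.1% and 14.9%. At 50 kb or more, with peaks that had no neighbour in their list included, they were 8.61% (5.10% to 14.2%) and 14.8% (9.96% to 21.3%). The mean tally was also lower, going from 4.22 to 3.78 (replicate 1) and from 4.17 to 3.51 (replicate 2). With a tally of 3 alone, the shares from the nearest to the farthest of these bands were 13.2%, 3.68%, 5.70% and 2.02% in replicate 1. They were 19.4%, 9.36%, 6.49% and 10.8% in replicate 2, so the farthest band was not the lowest there.

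By span, members in genes spanning 50 to 100 kb recurred in 22.6% (19.2% to 26.5%) in replicate 1 and 26.6% (22.7% to 31.0%) in replicate 2. For 100 to 200 kb the shares were 13.2% and 21.9%, and for 200 kb or more they were 10.4% (6.90% to 15.4%) and 9.91% (6.57% to 14.7%). Among members with a tally of 5 or more the shares were also lower in longer spans, going from 56.8% in the shortest spans to 12 of 40 members in the longest for replicate 1, and from 58.6% to 26.7% for replicate 2. Members per 100 kb of inner span fell with span, from 1.30 to 0.448 (replicate 1) and from 1.13 to 0.470 (replicate 2). The span is the divisor here, so part of this fall may be built in. The share of genes with a member rose from the shortest to the longest spans, from 47.7% to 58.7% (replicate 1) and from 43.9% to 60.5% (replicate 2).

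**Figure D4:**
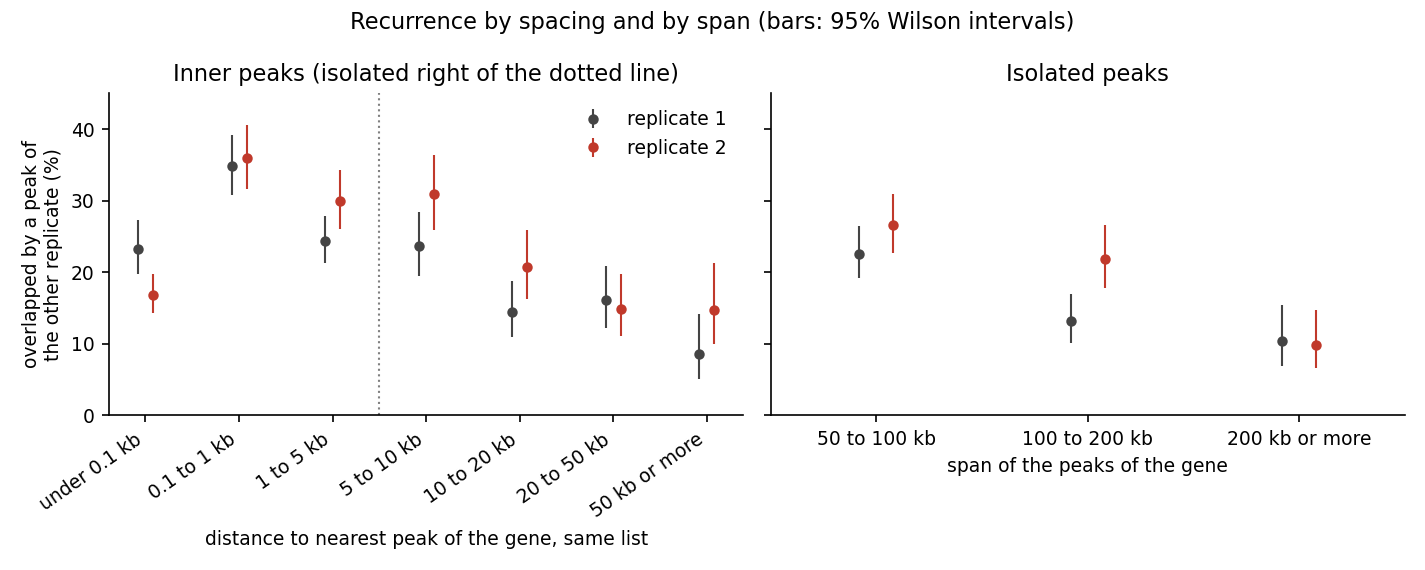
Share of peaks overlapped by a peak of the other replicate (%, vertical axis), with 95% Wilson intervals as bars, by distance to the nearest peak of the gene in the same list (left, all inner peaks) and by span of the gene (right, isolated peaks). The shares of isolated peaks go from 23.7% and 31.0% at 5 to 10 kb to 8.61% and 14.8% at 50 kb or more, and from 22.6% and 26.6% in the shortest to 10.4% and 9.91% in the longest spans.

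Recurrence also moved with how many peaks the gene had in the other list. Members whose gene had 1 to 3 peaks there recurred in 7.28% (4.71% to 11.1%) in replicate 1 and 8.85% (5.60% to 13.7%) in replicate 2. With 11 or more peaks the shares were 29.0% (23.4% to 35.3%) and 29.2% (23.9% to 35.1%). A recurrent member counts among those peaks, so part of this is built in. The part of transcript abundance in these shares was not tested.

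The 3'-most 10% of the long spans held 3326 of 7126 peaks in replicate 1 and 3031 of 6816 in replicate 2. The members were spread along the middle 80% of the span, to which the rule confined them. Outside the ends, each successive 10% of the span held 117 to 155 members in replicate 1. In replicate 2 the final pair of slices held 162 and 158 and the others 103 to 122, so the members of that list leaned to the 3' side. The middle of the span was passed by 51.2% of the members of replicate 1 (48.3% to 54.2%) and 54.6% of those of replicate 2 (51.5% to 57.7%). Clustered inner peaks leaned further to the 3' side, at 57.1% and 60.1%, with 295 and 354 of them in the last 10% inside the margin. Recurrent members passed the middle in 51.6% and 52.2%. The recurrent share ran from 13.7% to 20.5% over these slices in the first list and from 18.9% to 24.3% in the second, within overlapping intervals. Of the pairs isolated in both lists, 60 of 124 (48.4%) lay beyond the middle. Only peaks with room on both sides could be members, which thins them where peaks are dense.

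The gene with the most members was ENSG00000115760.9, on the plus strand of chromosome 2 with peaks from 32602714 to 32843406. It held 6 in replicate 1, with tallies from 3 to 14, and 5 in replicate 2, with tallies from 3 to 5. A pair isolated in both lists lay at 32695266 to 32695316 and 32695271 to 32695319, with tallies of 5 and 4. Its strongest member, at 32724699 to 32724841 in replicate 1 with a tally of 14, was 143 nt wide and overlapped a clustered peak with a tally of 10. No other member of this gene was overlapped, and their tallies were 3 to 5. One of them, at 32640801 to 32640835 in replicate 2, adjoined a clustered peak of replicate 1 without sharing a base.

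ENSG00000196498.9, on the minus strand of chromosome 12 reaching from 124809084 to 125023983, was uneven between the libraries. It held 2 members in replicate 1, with tallies of 3 and 4, and 8 in replicate 2, with tallies from 4 to 10. The gene had 14 peaks in all in replicate 1 and 35 in replicate 2. Its pair isolated in both lists, at 124941658 to 124941694 and 124941652 to 124941699, had tallies of 3 and 7.

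The next 7 genes held 8 or 9 members over both lists, on chromosomes 1, 2, 6, 10, 11, 14 and 17, with spans of 84.9 to 430.5 kb. Their members had tallies from 3 to 8, and a pair isolated in both lists was present in 3 of the 7. The tenth gene had 7 members, as had 10 others, and was taken by the order of gene IDs; 5 of these 11 held a pair. On chromosome 6 the longest of these spans held 1 such pair, at 157279160 to 157279191 and 157279158 to 157279190, with a tally of 3 in each list. On chromosome 14 the pair at 71500733 to 71500751 and 71500717 to 71500747 also had tallies of 3 and 3. On chromosome 10 the pair at 89711915 to 89711955 and 89711916 to 89711958 had tallies of 5 and 3. Of the 85 members of the 10 genes 16 were recurrent (18.8%), against 19.1% of all members. A pair was found in 5 of the 10, against 12.8% of the 854 member genes. All of the 10 had members in both lists, which a pair requires. Of the 402 genes with members in both lists 27.1% held a pair. A gene with more members has more chances to hold a pair.

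**Figure D5:**
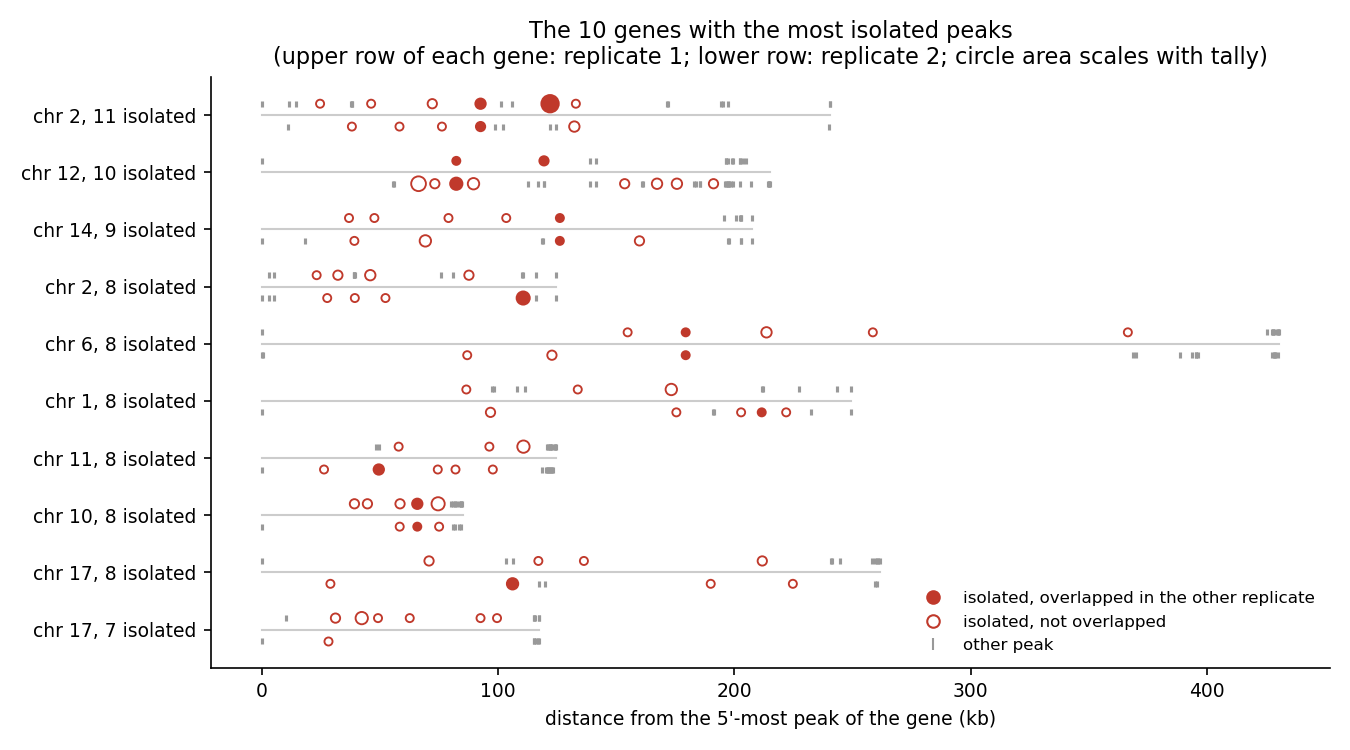
Peaks of the 10 genes with the most isolated peaks, by distance from the 5'-most peak of the gene (kb, horizontal axis), with replicate 1 above and replicate 2 below each line. Circles are isolated peaks, with area in proportion to tally and filled where a peak of the other replicate overlapped, and grey ticks are other peaks; most circles are open, and filled ones number 0 to 2 per row.

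On either side of the rule's limits the intervals of the recurrent shares overlapped. Members with a gap of 5 to 6 kb recurred in 24.7% (23 of 93) in replicate 1 and 27.1% (19 of 70) in replicate 2, against 30.2% (29 of 96) and 33.9% (21 of 62) of inner peaks with a gap of 4 to 5 kb. Members in spans of 50 to 60 kb recurred in 24.2% and 27.5%, against 20.9% and 37.0% of peaks that met the other conditions in spans of 40 to 50 kb. Median tallies in these bands were 3 to 4. In replicate 1 the member nearest to the distance limit was a plus-strand peak on chromosome X with a gap of 5.01 kb and a tally of 4, and the nearest peak outside it, on chromosome 12, had a gap of 4.97 kb and a tally of 5. In replicate 2 the gaps were 5.02 kb inside and 5.00 kb outside (4997 nt), with tallies of 4 and 3. The members nearest to the margin of the span lay at 90.0% of it in replicate 1 and 10.1% in replicate 2, and the nearest isolated peaks outside it at 90.1% and 9.90%.

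Gene IDs that share positions touched few members. Another gene ID had a peak within 5 kb on the same strand for 40 members of replicate 1 (3.69%) and 52 of replicate 2 (5.32%). Without them 16.2% and 21.2% of the members recurred. Several gene IDs shared 1 interval in 8 cases in replicate 1 and 6 in replicate 2. The gene's only peak in its list was the member in 22 and 26 cases, and 2 and 6 of these recurred.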

How the data were processed

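The build was hg19 and the tools were STAR 2.3.0e, Bowtie 1.0.0 and cutadapt, in roles not stated, per the submitters' processing notes. Each library has its own peak list; which caller made it, and with what settings, the sources used here do not state. Each peak's p-value is the deposited one, under 0.05 throughout; whether it was corrected for multiple peaks is not given. Starts were converted to 1-based positions. The text before the first dot of a peak's name gave the gene and the last number the tally. Distances were taken between facing edges of peaks. Calculations used matplotlib 3.10.9, SciPy 1.17.1, pandas 2.3.3 and NumPy 2.4.6 in Python 3.11.15. The membership rule and the overlaps were checked on simulated lists. The members and lists were chosen with earlier results of these data known.

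Named items were the 10 strongest pairs isolated in both lists, the 10 genes with the most members (ties by gene ID), the 5 strongest members of each list without an overlap, the widest and narrowest members, and those nearest the limits; the strongest member of each list and the chromosome 2 site at 191797517 were added after their values were seen. Gene lists (blood transcription factors, chromatin regulators, RNA-binding proteins, signalling genes, the aryl hydrocarbon receptor pathway) and cell type markers had been set out by name and were not used here, since the lists give no names. Sequence content was not analysed here. Peaks of 1 library are not replicates, so no test was run, and alternatives varied the rule, the overlap and the list.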

Additional observations from a re-analysis of the deposited data

How the results depend on the processing

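Of 77 recomputed values, 48 stayed within the margin set, which was 1.5 times for counts and 1 SD between the replicates otherwise, and 29 did not. For the shares overlapped, that SD comes from the 2 directions of 1 comparison, so it is a set limit and not a replicate spread. With a replicate left out, the value of 1 library was set against the mean of both. Each of 2 values lies within 1 SD of their mean, so for measures other than counts staying within the margin was largely built in. Values are means of the replicates; the cause of a change was not tested except where the alternative itself sets it. Members per replicate numbered 1030.5 as reported, 1594 with an isolation distance of 1 kb, 567 with a span of 100 kb, 316 with the stronger 50% by p and 149.5 with a tally of 5 or more, and 701 to 757 with either replicate left out. Shorter lists hold fewer peaks by construction. The median tally was 3.5 at 1 kb, 5 with the stronger 50% and 6 with a tally of 5 or more, and 3 with either replicate left out. The median width was 39 nt as reported, 44.25 nt with the stronger 50%, 52 nt with a tally of 5 or more, and 38 to 40 nt with either replicate left out. The share overlapped by any peak of the other list was 19.2% as reported. It was 15.5% at an isolation distance of 10 kb and 14.7% with a span of 100 kb. A reciprocal overlap of 50% gave 14.9%, and peaks extended by 100 nt gave 22.7%. The stronger 50% gave 31.4%, and a tally of 5 or more gave 37.0%. For these cuts, here and below, both lists were cut first, so the partner had to pass the same cut. Against the full lists, 46.0% (replicate 1) and 50.9% (replicate 2) of the reported members with a tally of 5 or more recurred. With either replicate left out of the rule the share was 17.0% to 21.3%, still scored against the full list of the replicate left out. The share overlapped by an isolated peak was 11.9% as reported, 17.9% at 1 kb, 7.47% at 10 kb, 9.36% with a span of 100 kb, 12.8% with 20 kb, 22.4% with the stronger 50%, 25.5% with a tally of 5 or more, 9.24% with the reciprocal overlap and 14.1% with the extension. Genes with a pair isolated in both lists numbered 109 as reported, 215 at 1 kb, 50 at 10 kb, 50 with a span of 100 kb, 168 with 20 kb, 62 with the stronger 50% and 34 with a tally of 5 or more. The last 2 results need members in both lists, so they have no value with a replicate left out of the rule. No paired analysis was possible because there is 1 group. With a median tally of 3, most members rest on the lowest value listed.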
